A study of Caenorhabditis elegans with 15 samples.

Results

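The comparison set the rde-4 mutant of Caenorhabditis elegans, in 3 separately grown populations, against the wild type, also in 3. It took in every gene that a probe set of its own could name, 17118 genes, in 6 of the 13 biological samples of the series. Of these genes 8653 were tested, those with a log2 value of at least 5 in at least 2 of the 13 samples. The rde-4 mutant was strain BB11 with the allele rde-4(ne299) on chromosome III, and N2 Bristol served as wild type. The other mutant strains served only to ask whether a change differed from that in another mutant: VC446 with alg-1(gk214) on chromosome X (3 populations), RB774 with zfp-1(ok554) on chromosome III (2 populations) and MT3033 with both lin-35(n745) and unc-13(e1091) on chromosome I (2 populations), where the effects of the 2 alleles cannot be told apart. Eggs of all 5 groups were freed with hypochlorite, hatched overnight without food, and the first-stage larvae ate OP50 bacteria for 6 to 7 h before RNA was taken from whole animals. The title of the study names RNAi and retinoblastoma-related genes and the repression of endogenous siRNA targets, and this comparison asks which transcripts depend on rde-4. One mutant line was used, so other differences between BB11 and N2 cannot be told apart from the allele.

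RDE-4 is a small double-stranded RNA-binding protein. It binds long double-stranded RNA and hands it to the Dicer nuclease DCR-1, working with the Argonaute RDE-1 and the helicase DRH-1, so that primary siRNAs can be cut. RNA-dependent RNA polymerases then copy the target into many secondary siRNAs. RDE-4 is also found in a Dicer complex with ERI factors, which makes siRNAs against the worm's own transcripts.

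The rde-4 transcript stood at 7.60, 7.74 and 7.5 (log2 units, as are all values below) in the 3 rde-4 mutant samples and at 10.57, 10.45 and 10.74 in the 3 wild-type samples. Every mutant sample lay far below every wild-type sample, and also below the 7 samples of the other mutants, which ran from 10.26 to 11.97. The change was -2.97 ± 0.18 (SE, limma adjusted p = 6.1e-06), a 7.85-fold fall. Where the probes lie relative to the lesion was not examined.

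The arrays are summarised here once. Each of the 6 samples held 8154 to 8306 genes at 5 or more, and arrays have no read depth, so their number limits the precision. Wild-type replicate 3 lay nearer to the mutant than replicates 1 and 2: the SD over genes of its log2 difference from the rde-4 samples was 0.61 to 0.83, against 0.91 to 1.04 for the other two, while wild-type samples differed among themselves by 0.61 to 0.72. The 3′ to 5′ log2 difference of the actin control probe sets, a measure of RNA integrity, was 1.94, 2.96 and 2.08 in the rde-4 mutant and 1.25, 2.22 and 1.58 in wild type. The rde-4 mutant and wild-type values overlapped, with 2 of the 3 mutant values below the highest wild-type value. Arrays of the other mutants were lower, at 0.89 to 1.62 (alg-1), 0.92 to 1.5 (zfp-1) and 0.81 to 1.79 (lin-35). Every rde-4 value lay above all of these. In contrasts with the other mutants, RNA integrity therefore cannot be told apart from strain. A fit with the actin difference as a covariate is given beside the counts. Fewer cells of a type and less RNA per cell cannot be told apart in whole animals.

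At a limma adjusted p under 0.05, 552 genes (6.38%) rose and 409 (4.73%) fell in the rde-4 mutant, together 961 (11.1%) of 8653. The median change was 1.08 among rises and -1.28 among falls, and 39 rises and 86 falls reached 2 log2 units. With values below 5 set to 5 these medians were 1.05 and -1.22, and 30 rises and 71 falls reached 2 log2 units. All 3 mutant samples lay beyond all 3 wild-type samples for 956 of the 961 genes, which is read against 32.2% of all genes tested. In 40 of the falls every mutant sample was below 5, and in 19 of the rises every wild-type sample was, so that their folds are lower bounds. The split was not stable: with array medians subtracted 995 genes rose and 334 fell, and the median change of all genes moved to 0.186, against 0.042 as deposited. The total also turned on single samples. It was 410, 568 and 482 without rde-4 mutant replicate 1, 2 and 3, and 230, 248 and 1452 without wild-type replicate 1, 2 and 3. It was 220 with the actin difference as a covariate, 195 when the fit held no other group, and 33 with replicate 3 as the sole wild-type sample, a setting chosen after seeing the data. In each of these fits no tested gene among the 961 changed sign. For the 956 genes without overlap, leaving out samples could not reverse it. There were 29 genes, 8 rises and 21 falls, that passed under all 17 alternatives in which they were tested.

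**Figure D1:**
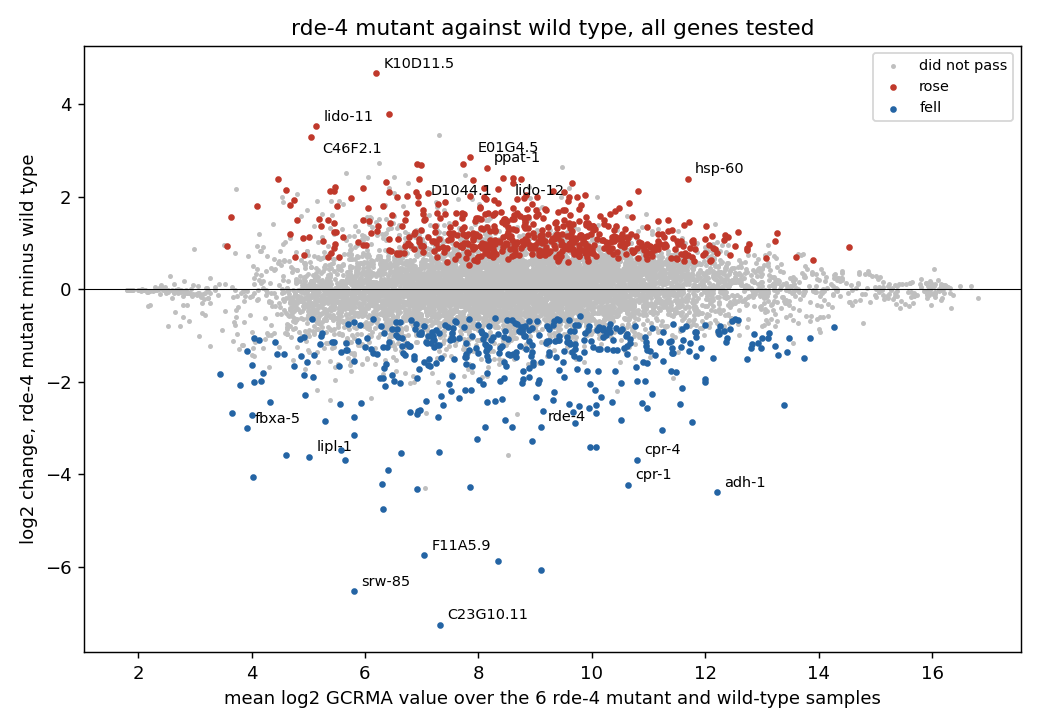
Each point is 1 of the 8653 genes tested, with its mean log2 GCRMA value over the 3 rde-4 mutant and 3 wild-type samples on the x axis and its log2 change (rde-4 mutant minus wild type) on the y axis; red genes rose, blue genes fell and grey genes did not pass. The furthest points rest in part on values below 5. With such values set to 5, the change of C23G10.11 is -5.96 in place of -7.25 and that of K10D11.5 is 3.24 in place of 4.67.

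Some of the largest rises also stood above the other mutants. Against the mean of the alg-1, zfp-1 and lin-35 mutants, a contrast that does not use the wild-type samples, 495 genes (5.72%) differed, 173 (2.0%) higher and 322 (3.72%) lower in the rde-4 mutant. 88 genes (1.02%) differed from the alg-1 mutant, 32 higher (0.37%) and 56 lower (0.647%). 118 (1.36%) differed from the zfp-1 mutant, 75 higher (0.867%) and 43 lower (0.497%), and 984 (11.4%) from the lin-35 mutant, 295 higher (3.41%) and 689 lower (7.96%). The 173 higher genes became 98 and 105 without rde-4 mutant replicate 1 and 2, 113 without alg-1 mutant replicate 1, 90 and 93 without zfp-1 mutant replicate 1 and 2, and 109 without lin-35 mutant replicate 1; the total of 495 became 327 and 326 without the zfp-1 replicates. Where 1 sample of a group was left, it was assumed to vary like the other groups. With the actin difference as a covariate, 24 genes were higher and 143 lower than the mean of the other mutants. lido-11, on chromosome II, stood at 7.18, 6.83 and 6.70 in the rde-4 mutant and at 3.39, 3.37 and 3.38 in wild type. All other mutant samples lay between 2.51 and 3.63, so lido-11 was above 5 in the rde-4 mutant alone. It was at least 3.74-fold higher than in wild type (change 3.53 ± 0.18, SE, limma adjusted p = 1.73e-06) and 3.91 ± 0.15 above the other mutants (limma adjusted p = 5.87e-08).

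lido-11 was not alone on its stretch of chromosome II. In the gene order of RefSeq assembly WBcel235, lido-8, lido-9, lido-10, lido-11 and lido-12 follow one another, and all 5 rose in the rde-4 mutant. lido-12 stood at 9.80, 9.73 and 9.40 in the rde-4 mutant and at 7.08, 7.34 and 7.31 in wild type, a change of 2.4 ± 0.21 (SE, limma adjusted p = 8.52e-05). lido-8, lido-9 and lido-10, chosen after their values were seen, rose by 2.12, 2.12 and 1.95. All 5 were also higher than in the other mutants. The calls of lido-8, lido-9 and lido-10 were lost under 8, 1 and 3 alternatives. On one side lido-7 changed by 0.17 (limma adjusted p = 0.582) and nhr-88 by -0.64 (limma adjusted p = 0.443), and on the other clec-3 changed by 0.13 (limma adjusted p = 0.933). Whether the rise of these neighbours is 1 event or several was not tested.

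**Figure D2:**
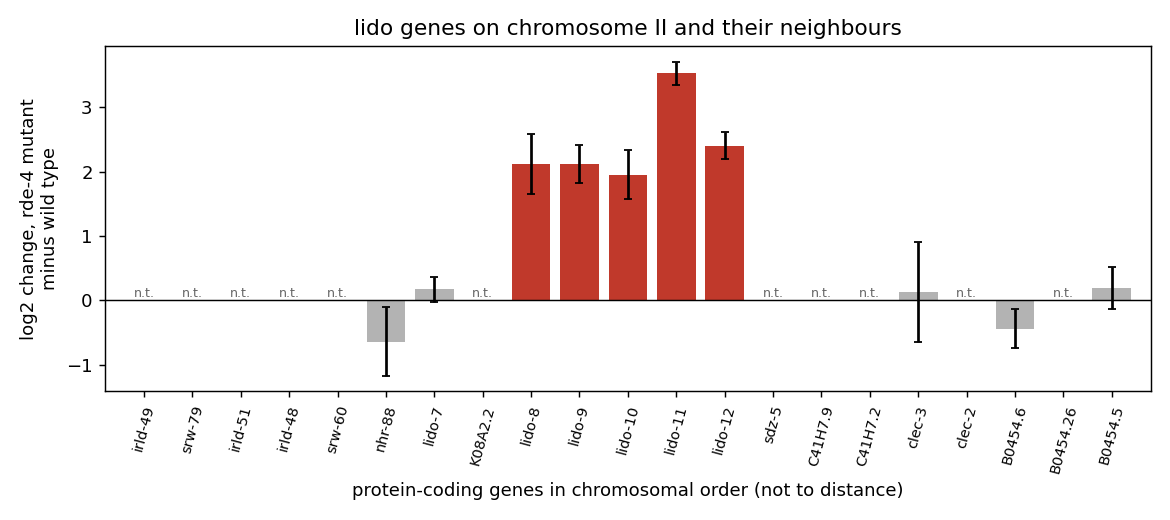
Bars give the log2 change (rde-4 mutant minus wild type) with limma's standard error for protein-coding genes around lido-10 on chromosome II, in order but not to distance; red bars passed the test, grey bars did not and n.t. marks genes that were not tested. The 5 adjacent genes lido-8 to lido-12 have bars from 1.95 up, that of lido-11 resting on wild-type values below 5 (at least 3.74-fold), and none of the tested genes beside them passed.

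E01G4.5, a transcript known to be silenced by endogenous siRNAs, was the clearest rise among the listed siRNA targets. It stood at 9.5, 9.53 and 8.84 in the rde-4 mutant and at 6.80, 6.12 and 6.39 in wild type. The groups did not overlap, and the samples of the other mutants were lower than both, at 4.43 to 6.09. The change from wild type was 2.85 ± 0.29 (SE, limma adjusted p = 0.000292), a 7.23-fold rise that held under every alternative, and the difference from the other mutants was 4.08 ± 0.25 (limma adjusted p = 1.55e-06). Only 4 of the 13 listed targets with a probe set were expressed highly enough to be tested, and E01G4.5 alone of them passed against wild type. Y43F8B.9 averaged 8.74 ± 0.58 in the rde-4 mutant and 7.49 ± 0.51 in wild type (SD, n = 3 each), a change of 1.24 that did not pass (limma adjusted p = 0.0548). It was nevertheless 2.27 above the other mutants (limma adjusted p = 0.00105). W04B5.1 and K02E2.6 changed by -0.28 and 0.18 and did not pass. The median change of the 4 genes was 0.71, beside 0.042 over all genes.

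D1044.1, C46F2.1 and brc-2 were also higher in the rde-4 mutant than in wild type and than in each of the other mutants. D1044.1, on chromosome III, stood at 8.49, 7.61 and 8.35 in the rde-4 mutant and at 5.95, 5.54 and 5.81 in wild type, with the other mutants at 4.99 to 5.70. Its change of 2.38 ± 0.25 (SE, limma adjusted p = 0.000327) held under every alternative. C46F2.1, on chromosome X, stood at 6.90, 6.90 and 6.29 in the rde-4 mutant and at 2.88, 4.11 and 3.21 in wild type, at least 3.24-fold higher (limma adjusted p = 0.00131). The genes that follow D1044.1 on the chromosome went the other way: F09F7.5, F09F7.6 and nmad-1, chosen after their values were seen, fell by 0.94, fell by 2.67 and fell by 1.8. F09F7.5 lost its call under 9 alternatives, and the other two when replicate 3 was the sole wild-type sample. brc-2, the worm counterpart of the breast cancer gene BRCA2 in DNA repair, was also chosen after its values were seen. It stood at 9.56, 9.16 and 9.58 in the rde-4 mutant and at 6.79, 7.39 and 7.59 in wild type, a change of 2.18 ± 0.24 (SE, limma adjusted p = 0.000477) that held under every alternative.

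2 enzymes of purine synthesis stood among the 8 largest rises that also exceeded the other mutants. ppat-1, the amidotransferase of the first committed step, stood at 9.59, 9.64 and 9.18 in the rde-4 mutant and at 6.96, 6.78 and 6.78 in wild type, a 6.2-fold rise (change 2.63 ± 0.35, SE, limma adjusted p = 0.00155). The call was lost when replicate 3 was the sole wild-type sample, and under no other alternative. pfas-1, which acts further down the same pathway and whose call against the other mutants was lost without zfp-1 mutant replicate 1, stood at 9.59, 8.68 and 9.31 in the rde-4 mutant and at 6.25, 7.20 and 7.55 in wild type (change 2.19 ± 0.50, SE, limma adjusted p = 0.0217), and its call was lost under 7 alternatives. The remaining steps to inosine monophosphate were looked up after these values were seen. F38B6.4 rose by 1.06 and atic-1 by 0.96, each with the call lost under 8 alternatives, while adsl-1 and pacs-1 changed by 0.54 and 0.35 and did not pass.

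The largest rise, also with values below 5 set to 5, did not separate the rde-4 mutant from the other mutants. K10D11.5 stood at 8.71, 8.52 and 8.38 in the rde-4 mutant and at 2.69, 5.89 and 3.03 in wild type. The groups did not overlap, and the change was 4.67, or 3.24 with values below 5 set to 5. The other mutants ran from 8.26 to 9.38, and the difference from them was -0.31 (limma adjusted p = 0.783). otub-2, which encodes a deubiquitinase of the otubain family, rose by 2.69 against wild type and differed by 0.26 from the other mutants (limma adjusted p = 0.735); its call was lost when replicate 3 was the sole wild-type sample.

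Among the falls, a chemoreceptor gene was the most clear-cut. srw-85 stood at 2.50, 2.49 and 2.65 in the rde-4 mutant and at 9.05, 8.93 and 9.24 in wild type, a fall of at least 16.8-fold (change -6.53 ± 0.15, SE, limma adjusted p = 5.11e-10). It was also low in the zfp-1 mutant, at 2.63 to 2.77 (difference -0.16, limma adjusted p = 0.81), and high in the alg-1 and lin-35 mutants, at 9.48 to 9.89. The fall held under every alternative. Of 50 chemoreceptor genes tested, out of 1326 with a probe set, 2 rose (4.0%) and 4 fell (8.0%), near the shares over all genes (6.38% and 4.73%).

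F11A5.9, adh-1 and fbxa-5 fell below wild type and below each other mutant. F11A5.9, a gene with no assigned role here, stood at 3.48, 5.69 and 3.34 in the rde-4 mutant and at 9.85, 9.94 and 9.94 in wild type (change -5.74 ± 0.55, SE, limma adjusted p = 0.000148), or -4.68 with values below 5 set to 5. adh-1, an alcohol dehydrogenase, stood at 10.08, 10.28 and 9.66 in the rde-4 mutant and at 14.51, 14.64 and 14.04 in wild type, a 20.9-fold fall (limma adjusted p = 1.3e-05). fbxa-5, an F-box gene, stood at 2.18, 2.1 and 2.95 in the rde-4 mutant and at 5.22, 5.58 and 5.44 in wild type, a fall of at least 1.34-fold (limma adjusted p = 8.85e-05). In all 3 genes the groups were fully apart, and the calls held under every alternative. C23G10.11 stood at 3.67, 3.86 and 3.60 in the rde-4 mutant and at 10.94, 11.76 and 10.16 in wild type, a fall of at least 62.1-fold (limma adjusted p = 0.000479). The alg-1 samples reached as low as 2.95, and the direct difference from alg-1 did not pass (-0.83, limma adjusted p = 0.642). Its call against wild type was lost when replicate 3 was the sole wild-type sample.

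**Figure D3:**
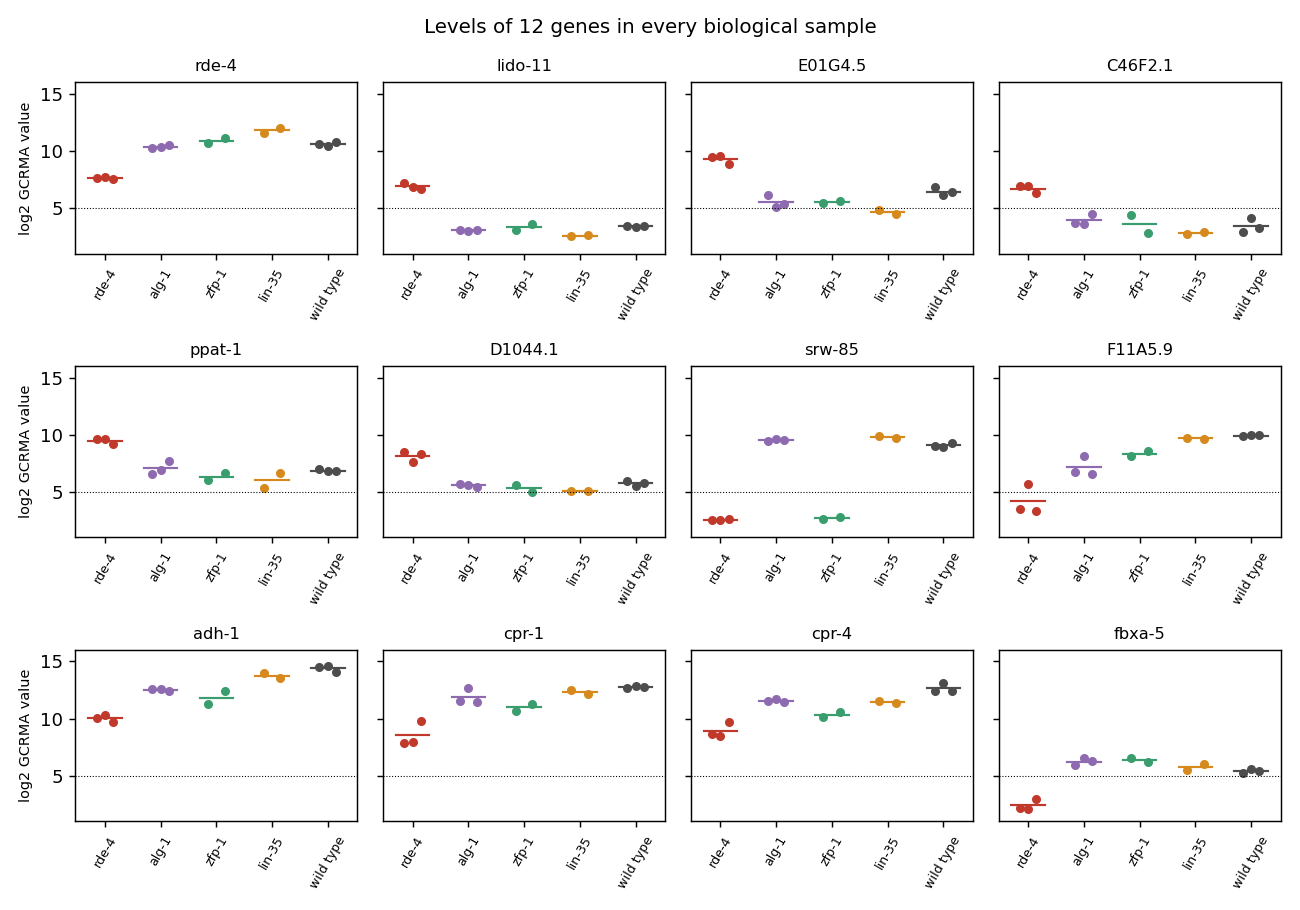
Points are the log2 GCRMA values of 12 genes in each of the 13 biological samples, by group, with a line at each group's mean; the dotted line marks 5, the value used as the limit of detection. rde-4 itself is low in its mutant, lido-11, E01G4.5, C46F2.1, ppat-1 and D1044.1 are high in the rde-4 mutant alone, and srw-85 is low in both the rde-4 and zfp-1 mutants.

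Of 23 tested genes of RNAi initiation 1 rose and 1 fell (4.3% each), shares near the 6.38% and 4.73% over all genes, and 6 had an unadjusted p under 0.05. rde-4 fell and rsd-6, which helps RNAi spread in the germ line, rose by 0.79 (limma adjusted p = 0.0179, call lost under 5 alternatives). Partners of RDE-4 gave these values without passing: dcr-1 changed by 0.23 ± 0.21 (SE) and rde-1 by -0.34 ± 0.21, and drh-1 by 0.14 ± 0.19. Of 11 tested ERI factors only rde-4 passed, with rrf-3, the polymerase of the ERI pathway, at -0.06 ± 0.19 and its Argonaute ergo-1 at 0.01 ± 0.37. Of 10 tested Argonautes 1 fell and 0 rose by limma, with 3 at an unadjusted p under 0.05: sago-1, which carries secondary siRNAs, fell by 0.83 (limma adjusted p = 0.0464), a call lost under 12 alternatives. Of the 10 genes nearest to rde-4, 6 were tested, and blos-1 and best-18 fell by 0.80 and 1.26, while their differences from the other mutants did not pass (limma adjusted p = 0.669 and 0.981). Their calls were lost under 8 and 2 alternatives. Of 25 tested genes of the antiviral and intracellular pathogen response, which includes the pals family, 0 passed against wild type by limma and 2 had an unadjusted p under 0.05 (median -0.17). Of the 34 members with a probe set, 26 were below 5 in every rde-4 mutant and wild-type sample. These gave no signal in either group, so a fall from wild type could not be seen in them. Of the 25 tested genes, 18 were lower than the mean of the other mutants, beside 3.72% of all genes. Taken mutant by mutant, 19 were lower than in the lin-35 mutant, beside 7.96% of all genes, and 0 differed from the alg-1 or zfp-1 mutant. The median change from wild type was 4.29 in the lin-35 mutant. A gene was tested if 2 samples reached 5, and the lin-35 mutant had 2 samples. For members at 5 or more in the lin-35 mutant alone, a lower value in the rde-4 mutant was fixed by this filter.

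Many genes of the protein synthesis and mitochondrial machinery rose in the rde-4 mutant against wild type, and cytosolic ribosomal proteins gave no call. Of 57 tested mitochondrial ribosomal proteins, which build the ribosomes inside mitochondria, 22 (38.6%) rose and 0 fell, beside 6.38% and 4.73% over all genes, and all 57 changes were above 0 (median 0.79). mrpl-2 stood at 9.36, 9.41 and 9.35 in the rde-4 mutant and at 8.26, 8.27 and 8.43 in wild type (change 1.05 ± 0.17, SE, limma adjusted p = 0.00571). mrps-26 stood at 6.99, 7.74 and 6.42 in the rde-4 mutant and at 4.52, 5.1 and 4.99 in wild type (change 2.18 ± 0.38, SE, limma adjusted p = 0.00711). The groups did not overlap for either. Of 74 tested cytosolic ribosomal proteins 0 rose and 0 fell by limma, 2 had an unadjusted p under 0.05, and the median was 0.00 with changes from -0.32 to 0.5. Their median level was 15.94, near the top of the scale, against 10.19 for the mitochondrial set, and whether saturation narrows their changes was not tested.

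Of 35 tested translation factors 12 (34.3%) rose and 0 fell (median 0.74), beside 6.38% and 4.73% of all genes. eif-3.E, a subunit of the initiation factor that readies the small ribosomal subunit, rose by 0.97 ± 0.17 and eif-2D by 1.37 ± 0.25 (SE, limma adjusted p = 0.00899 and 0.00924). Of 31 tested aminoacyl-tRNA synthetases, which load amino acids onto tRNA, 10 rose and 0 fell (median 0.65), among them the methionine enzyme mars-1 at 1.35 ± 0.22. Of 18 genes of mitochondrial import 6 rose, among them the outer membrane channel tomm-40 by 0.96 ± 0.15 (SE, limma adjusted p = 0.00544). Nuclear pore genes rose in 7 of 24 cases, RNA polymerase subunits in 5 of 20 and splicing factors in 7 of 39, with 0 falls in each. hsp-60, the mitochondrial chaperonin, stood at 13.07, 12.43 and 13.17 in the rde-4 mutant and at 10.36, 9.33 and 11.79 in wild type (change 2.39 ± 0.59, SE, limma adjusted p = 0.0272), and its call was lost under 8 alternatives. The named genes mrpl-2, mrps-26, mars-1, eif-3.E, eif-2D and tomm-40 lost theirs when replicate 3 was the sole wild-type sample, and under no other alternative.

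How many members of these groups rose turned on single samples. Without wild-type replicate 1, 4 mitochondrial ribosomal proteins, 3 translation factors and 2 aminoacyl-tRNA synthetases rose, and without replicate 2 the counts were 6, 2 and 1. Without wild-type replicate 3 they were 27, 15 and 16. Leaving out rde-4 mutant replicate 1, 2 or 3 left 7, 8 and 12 mitochondrial ribosomal proteins and 4, 5 and 5 translation factors. With the actin difference as a covariate 4 mitochondrial ribosomal proteins, 2 translation factors and 1 synthetase rose, and with replicate 3 as the sole wild-type sample 0 of each rose, with medians of 0.56, 0.45 and 0.25. Nuclear pore genes, RNA polymerase subunits and splicing factors gave 0 calls each without wild-type replicate 1 and without replicate 2. The counts against the other mutants were 0 of 57 mitochondrial ribosomal proteins, 2 of 35 translation factors and 1 of 31 aminoacyl-tRNA synthetases, beside 2.0% of all genes. The 2 translation factors, eif-3.E and eif-2D, lost that call when single samples of the other mutants were left out (6 and 5 of 7). Of the import, nuclear pore, RNA polymerase and splicing genes, 0 were higher than the other mutants. Against wild type these lists also had medians above 0 in the other mutants. In alg-1, zfp-1 and lin-35 they were 0.23, 0.59 and 0.11 for mitochondrial ribosomal proteins (rde-4 0.79). For translation factors they were 0.43, 0.61 and 0.41 (rde-4 0.74), and for nuclear pore genes 0.48, 0.5 and 0.31 (rde-4 0.56). The mean level of the mitochondrial ribosomal proteins, centred on the 13 samples, was 0.37, 0.64 and 0.25 in the rde-4 mutant and -0.53, -0.48 and -0.14 in wild type. The groups were apart, with wild-type replicate 3 nearest to the mutant.

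**Figure D4:**
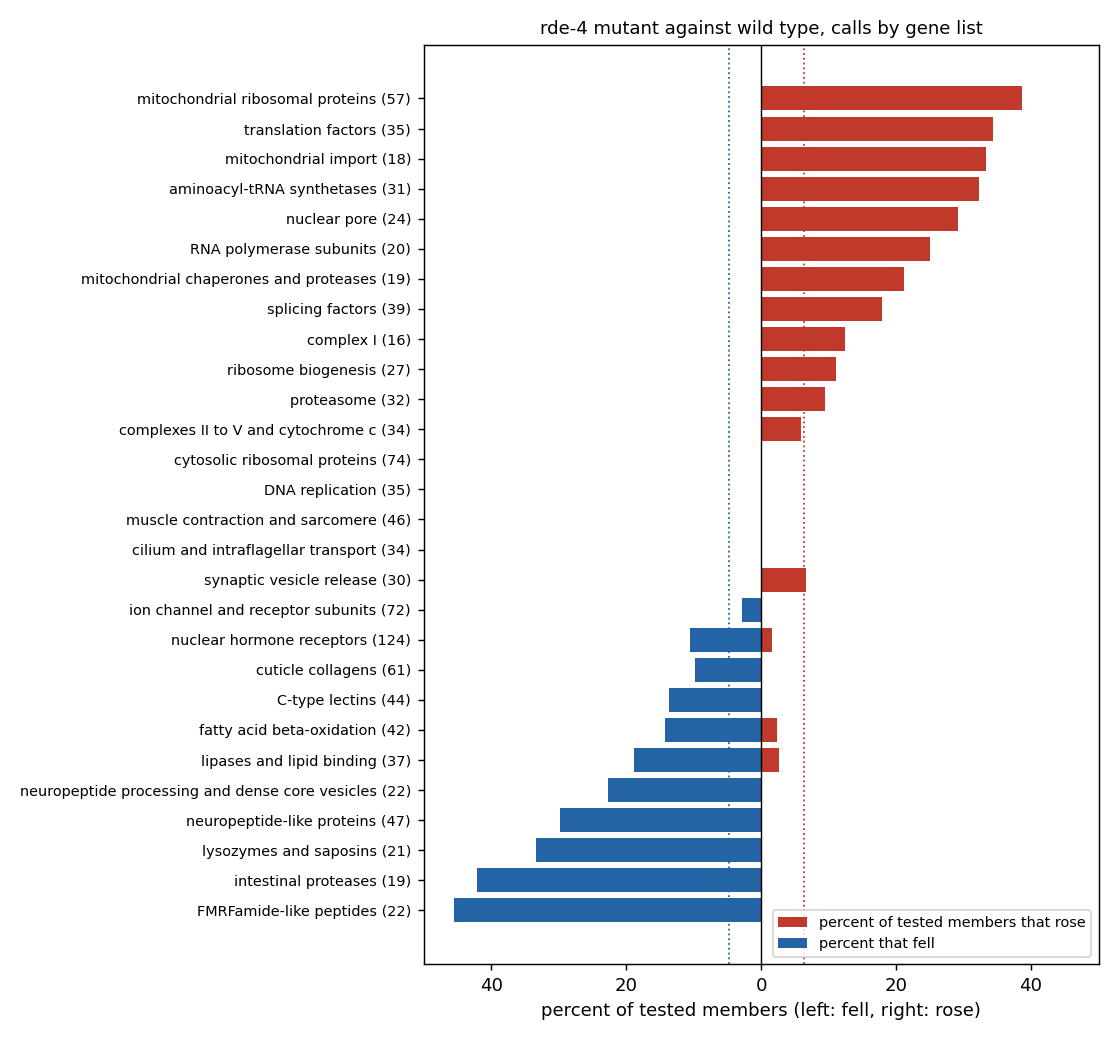
Bars give the percent of tested members of each gene list that rose (red, to the right) or fell (blue, to the left) in the rde-4 mutant against wild type, with the number tested in brackets; dotted lines mark the shares over all genes, 6.38% and 4.73%. The shares that rose reach 38.6% for mitochondrial ribosomal proteins and stand at 5.9% for complexes II to V with cytochrome c, the shares that fell reach 45.5% for FMRFamide-like peptides, and cytosolic ribosomal proteins, muscle and cilium genes gave no call.

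Many neuropeptide genes fell. These encode the small signalling peptides that neurons release from dense core vesicles. Of 22 tested FMRFamide-like peptides 10 (45.5%) fell and 0 rose (median -0.79), and of 47 neuropeptide-like proteins 14 (29.8%) fell and 0 rose (median -0.78). Over all genes 4.73% fell and 6.38% rose, with a median of 0.042. flp-12 stood at 7.74, 8.92 and 8.37 in the rde-4 mutant and at 11.25, 11.22 and 10.54 in wild type, a 6.30-fold fall (limma adjusted p = 0.00131). nlp-9 stood at 8.70, 8.53 and 8.67 in the rde-4 mutant and at 10.27, 10.37 and 9.65 in wild type (change -1.47 ± 0.23, SE, limma adjusted p = 0.00468). The groups did not overlap for either, and both genes were also lower than the mean of the other mutants. Of the 2 lists, 4 of 22 and 6 of 47 genes were lower there, beside 3.72% of all genes, and 0 and 2 were higher. Mutant by mutant, FMRFamide-like peptides were lower than in alg-1, zfp-1 and lin-35 in 2, 0 and 5 cases and neuropeptide-like proteins in 1, 1 and 9. flp-12 lost its call against the other mutants without zfp-1 mutant replicate 1, and flp-24 lost its own without 6 of the 7 samples in turn.

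Some genes that process the peptides fell too. Of 22 tested genes of neuropeptide processing and dense core vesicles 5 fell and 0 rose (median -0.18), including the carboxypeptidase egl-21 by 0.98 and the amidating enzyme pghm-1 by 0.9, with calls lost under 9 and 7 alternatives. Over all genes 4.73% fell. The falls of this list numbered 0, 0 and 4 without wild-type replicate 1, 2 and 3. They numbered 1 with the actin difference as a covariate and 0 when the fit held no other group. Of the 22 genes 0 were lower than the mean of the other mutants. Of 9 neurons markers 0 passed by limma (2 at an unadjusted p under 0.05, median 0.23), with a mean level of -0.05 to 0.21 in the rde-4 mutant and -0.15 to 0.03 in wild type. Of 30 synaptic vesicle release genes 2 rose and 0 fell (median 0.20). Of 72 ion channel and receptor subunits 2 fell (2.8%, median -0.09), and 42 lay below 0. Of 34 cilium genes 0 passed by limma (5 at an unadjusted p under 0.05), 25 lay below 0 and the median was -0.23. FMRFamide-like peptide falls numbered 4, 2 and 11 without wild-type replicate 1, 2 and 3, 4 and 3 without rde-4 mutant replicate 1 and 3, 4 with the actin difference as a covariate, and 0 with replicate 3 as the sole wild-type sample (median then -0.64). Neuropeptide-like protein falls numbered 5, 6 and 16 without wild-type replicate 1, 2 and 3, and 0 with replicate 3 as the sole wild-type sample (median -0.47). flp-12 and nlp-9 lost their calls under that setting alone.

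Several gut proteases and lysozymes fell. Intestinal cells release these enzymes to digest bacteria. Of 19 tested intestinal proteases 8 (42.1%) fell and 0 rose (median -0.56), beside 4.73% and 6.38% of all genes. Against the other mutants 6 of the 19 were lower, beside 3.72% of all genes, and cpr-5, cpr-9 and asp-6 among them lost that call without 7, 3 and 5 of the 7 other-mutant samples in turn. cpr-1 stood at 7.89, 7.97 and 9.75 in the rde-4 mutant and at 12.70, 12.82 and 12.75 in wild type, an 18.6-fold fall (limma adjusted p = 0.000477). cpr-4 stood at 8.65, 8.50 and 9.68 in the rde-4 mutant and at 12.38, 13.08 and 12.44 in wild type (change -3.69 ± 0.30, SE, limma adjusted p = 6.26e-05). Both encode cathepsin B-like proteases, both groups were fully apart, and cpr-4 and cpr-6 (-2.57) held under every alternative. cpr-1 lost its call when replicate 3 was the sole wild-type sample. The protease count was 3 without wild-type replicate 1 and also without replicate 2, 4 without rde-4 mutant replicate 1 and also without replicate 2, and 2 with replicate 3 as the sole wild-type sample, where the median was -0.61.

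Of 21 tested lysozymes and saposins, which attack bacterial walls and membranes, 7 (33.3%) fell and 0 rose (median -1.0), beside 4.73% and 6.38% of all genes. lys-7 stood at 3.45, 4.40 and 4.75 in the rde-4 mutant and at 7.73, 8.70 and 8.78 in wild type, a fall of at least 10.6-fold (limma adjusted p = 0.00376). With replicate 3 as the sole wild-type sample the median was -0.38, 1 gene of the list fell and lys-7 lost its call. Of 44 C-type lectins 6 (13.6%) fell against wild type, and 10 were lower (1 higher) than in the other mutants, beside 3.72% (2.0% higher) of all genes. clec-17 was -2.33 against wild type, a call lost when replicate 3 was the sole wild-type sample. The intestine markers are not independent of these lists, since cpr-6 is both a marker and one of the proteases above. Of 10 tested markers 3 fell, cpr-6 and ges-1 (-2.42) among them. The mean level of the 10 was -0.24, -0.75 and -0.26 in the rde-4 mutant against 0.37, 0.28 and 0.31 in wild type. Against the mean of the other mutants 0 of the 10 were lower. In the alg-1, zfp-1 and lin-35 mutants 2, 2 and 0 of them fell against wild type. elt-2, the transcription factor that defines the intestine, was at 7.35 ± 0.10 in the rde-4 mutant and 7.55 ± 0.22 in wild type (SD, n = 3 each) and did not pass. Of 9 pharynx markers 1 fell and 8 lay below 0, with a median of -0.70, against -0.41 for the intestine. Their mean level was -0.98, -0.45 and -0.09 in the rde-4 mutant and 1.04, -0.06 and -0.24 in wild type, so the groups overlapped. The 2 embryo markers tested had a median of -0.70 and a mean level of -0.81, -0.16 and -0.16 in the rde-4 mutant and 1.44, -0.11 and -0.36 in wild type, which overlapped as well. The body wall muscle markers had a median of -0.16. Of these and the remaining markers 0 of 10 body wall muscle, 0 of 6 epidermis, 0 of 5 coelomocyte and excretory cell, 0 of 4 germ line and 0 of 2 embryo markers passed by limma, of which 1, 1, 0, 1 and 0 had an unadjusted p under 0.05. Of the 10 germ line markers with a probe set, 9 were below 5 in every rde-4 mutant and wild-type sample, so a fall could not be seen in them. The part of tissue amounts in the falls of proteases, lysozymes, lectins and intestine markers was not tested.

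**Figure D5:**
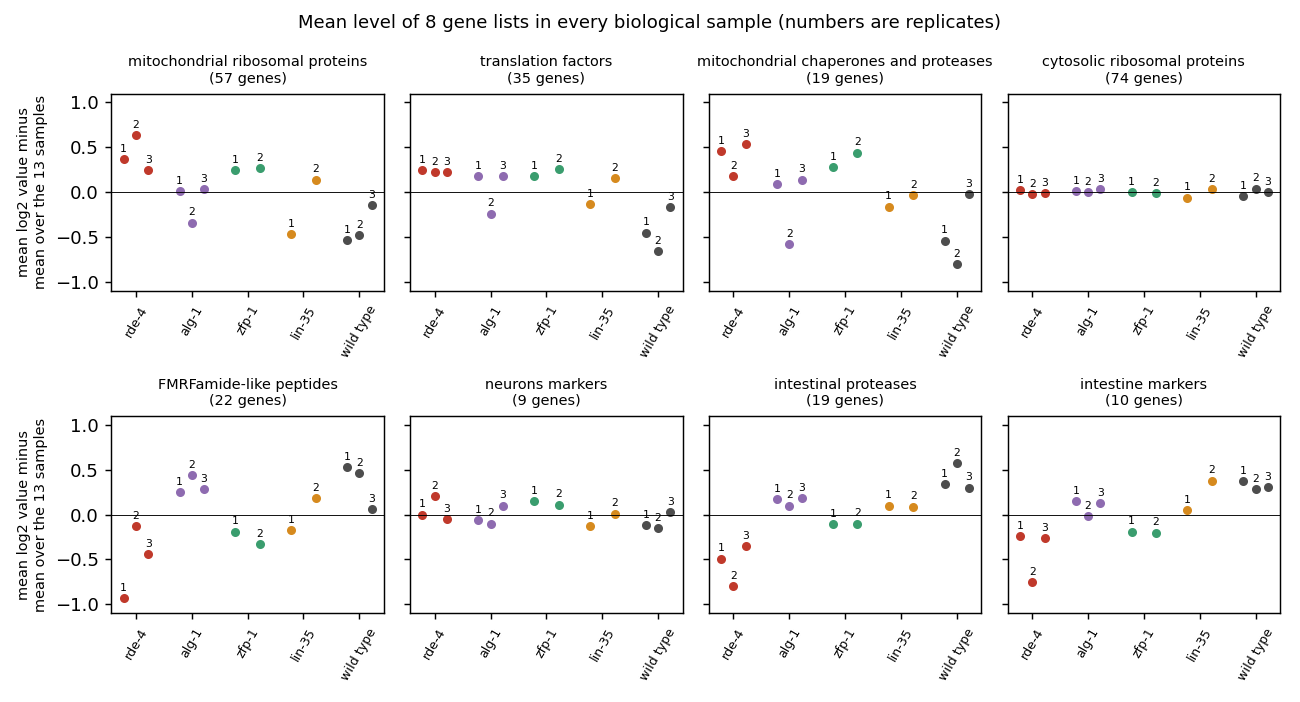
Points are the mean log2 level of each gene list in each of the 13 biological samples, centred on the mean over the samples, by group; the small numbers are replicates. Neuron markers and cytosolic ribosomal proteins lie near 0 in the 2 groups compared, intestinal proteases and intestine markers are low in all 3 rde-4 samples, and wild-type replicate 3 lies nearest to the mutant for the rising lists.

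Fat and energy metabolism gave mixed counts. Of 37 tested lipases and lipid-binding genes 1 rose (2.7%) and 7 fell (18.9%), and of 42 genes of fatty acid beta-oxidation 1 rose (2.4%) and 6 fell (14.3%), beside 6.38% and 4.73% of all genes. In the alg-1, zfp-1 and lin-35 mutants 3, 6 and 0 of the former and 4, 5 and 0 of the latter fell against wild type. The shares of all genes that fell in those mutants are not given here, so these counts cannot be read against a general rate. Against the mean of the other mutants, 4 of the former were lower and 3 higher. Of the latter 0 were lower and 2 higher, beside 3.72% and 2.0% of all genes. Without wild-type replicate 1 or 2 the falls of the former numbered 3 and 5, and those of the latter 2 and 1. lipl-1, a lysosomal lipase gene switched on by fasting, stood at 3.05, 3.75 and 2.83 in the rde-4 mutant and at 6.34, 7.27 and 6.88 in wild type, a fall of at least 3.55-fold (limma adjusted p = 2.88e-05), and held under every alternative. icl-1, the glyoxylate cycle enzyme that lets larvae turn fat into sugar, averaged 9.72 ± 0.19 in the rde-4 mutant and 12.77 ± 0.22 in wild type (SD, n = 3 each), an 8.26-fold fall (limma adjusted p = 0.00198) that was lost when replicate 3 was the sole wild-type sample. Its difference from the other mutants did not pass (-0.78, limma adjusted p = 0.226). dod-3, a gene known as a target of insulin signalling through DAF-16, fell by 2.63 ± 0.28 (SE, limma adjusted p = 0.000332). Of 124 nuclear hormone receptors 2 rose and 13 (10.5%) fell (median -0.36), nhr-19 at -1.96 among them. Of 61 cuticle collagens 6 (9.8%) fell and 0 rose (median -0.44). Without wild-type replicate 1 or 2 the nuclear hormone receptor falls numbered 2 and 3, and those of collagens 2 and 1. DNA replication (35 tested) and muscle genes (46 tested) gave 0 calls by limma, with 3 and 6 at an unadjusted p under 0.05.

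The shares of calls differed between chromosomes, beside 6.38% that rose and 4.73% that fell over all genes. On chromosome I 9.05% of 1448 tested genes rose and 2.42% fell, while on V 4.11% of 1631 rose and 6.99% fell, and on X 3.25% of 1293 rose and 6.19% fell. On III, which carries rde-4, 7.87% rose and 3.69% fell. Chromosomes II (7.4% rose, 4.37% fell) and IV (6.6% rose, 4.59% fell) lay near the shares over all genes. Among the falls described here, srw-85, F11A5.9, adh-1, cpr-1, cpr-4, lys-7 and lipl-1 lie on V. Others lie elsewhere, such as haf-6 and abhd-11.2 on I, Y54G11A.7 and pgp-11 on II, fbxa-5 and rde-4 on III, and cpr-6 on X.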

How the data were processed

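RNA of whole larvae was labelled with biotin (5 ug total RNA per sample) and hybridised to Affymetrix arrays. The authors deposited log2 values made with GCRMA, which corrects background, normalises between arrays and summarises probe sets, per the submitters' processing notes (version not given in the sources used here). Replicates were separately grown populations, per the labels. Probe sets naming 1 gene (20766 of 22625) were kept, 20701 of them matched to RefSeq (WBcel235), and each of 17118 genes took its brightest probe set (2981 had several). Coordinates are left out because the arrays' build is not named. Arrays of 1 sample were averaged, giving 13 samples in 5 groups. limma 3.58.1 in R 4.3.3 fitted all groups together (lmFit, eBayes; 8 residual and 3.49 prior degrees of freedom), with two-sided tests and Benjamini-Hochberg adjustment over 8653 genes. "At least" folds set values below 5 to 5. The 63 gene lists and 8 marker lists are described by counts and medians without set tests.

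Named genes are the mutated genes, the 15 largest rises and falls, up to 4 members per list with the smallest adjusted p, the 8 largest each way that also differ from the other mutants, and tested neighbours of rde-4; 177 genes, 169 passing. The members and lists were chosen with earlier results of these data known. In simulated data with 8653 genes, 200 of them changed, 47% of log2 changes of 1 and 90% of changes of 2 were recovered, with 7 false calls. The simulated noise was independent for each gene and sample. Shifts that many genes of 1 sample share were not simulated, so the rates do not cover them. Alternatives covered normalisation, filters, the samples fitted, a replicate block, an actin covariate, the variance prior, probe sets, repeat arrays, the threshold and each rde-4 mutant and wild-type sample left out; for the contrast with the other mutants, each of their 7 samples too. Deviations of same-numbered rde-4 mutant and wild-type replicates had r = -0.264, 0.042 and 0.202, and the numbers were not a block in the main fit. Whether same-numbered replicates of other groups share a batch was not tested. Figures used matplotlib 3.10.9.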

Additional observations from a re-analysis of the deposited data

Results flagged for a closer look

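The array of rde-4 mutant replicate 2 had the largest 3′ to 5′ log2 difference of the 15 arrays for both sets of control probe sets, which the comparisons of genes do not use. It was 2.96 for actin and 1.11 for GAPDH. The other rde-4 arrays had 1.94 and 2.08 for actin and 0.56 and 0.81 for GAPDH, and the wild-type arrays reached at most 2.22 and 0.81. Without this replicate 262 genes rose and 306 fell.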

How the results depend on the processing

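None of the genes that passed changed sign under the 17 alternatives in which it was tested (874 of the 961 with a mean of at least 6, 954 to 961 elsewhere). This was largely fixed in advance. For 956 of the 961 the groups did not overlap, so leaving out samples could not reverse the sign. Among named genes that did not pass, the small changes of unc-13, chc-1, T20G5.9 and div-1 changed sign under some alternatives. Counts were not stable. Against wild type (552 rises, 409 falls, 961 in all), no filter gave 172, 204 and 376, a fit without the other mutants 80, 115 and 195, the actin covariate 79, 141 and 220, and a threshold of 0.01 gave 51, 100 and 151. Subtracted array medians gave 995 rises. Leaving out 1 rde-4 mutant or wild-type sample gave 84 to 890 rises, 146 to 562 falls and 230 to 1452 in all. Replicate 3 as the sole wild-type sample, chosen after seeing the data, gave 9, 24 and 33; fewer samples enter that fit. The replicate block gave 685 rises and 500 falls, with a median residual SD of 0.29 against 0.32 in the main fit. Against the other mutants (173 higher, 322 lower, 495 in all), a mean of at least 6 gave 100, 137 and 237, the covariate 24, 143 and 167, a threshold of 0.01 gave 56, 179 and 235, and subtracted medians 380 higher. Leaving out 1 sample of any group, with those of the other mutants added after seeing the data, gave 90 to 249 higher, 226 to 346 lower and 326 to 577 in all.

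Medians of lists moved under the actin covariate to 0.54 for mitochondrial ribosomal proteins, 0.52 for RNA polymerase subunits, 0.50 for mitochondrial import and -0.05 for cytosolic ribosomal proteins. In the fit with replicate 3 as sole wild-type sample they were 0.56 (mitochondrial ribosomal proteins), 0.44 (RNA polymerase subunits), 0.25 (aminoacyl-tRNA synthetases), 0.45 (translation factors), 0.19 (nuclear pore) and -0.38 (lysozymes and saposins). Subtracted medians gave 0.84 for import and 0.14 for cytosolic ribosomal proteins. RNA polymerase subunits ranged from 0.55 to 0.91 when 1 rde-4 mutant or wild-type sample was left out. The causes were not tested. Genes near the background value of 5 have only bounds on their change.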

Other observations

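An ABC transporter known to be needed for full RNAi in the worm, haf-6, fell in the rde-4 mutant. It was looked up, with the other ABC transporters reported to act in RNAi, after its values were seen. haf-6 stood at 6.31, 6.2 and 6.07 in the rde-4 mutant and at 7.70, 8.77 and 9.06 in wild type, a change of -2.31 ± 0.34 (SE, limma adjusted p = 0.00288). The groups did not overlap, the other mutants lay between 7.96 and 9.22, and the call held under every alternative. pgp-11, of the same class, stood at 4.18, 3.90 and 3.92 in the rde-4 mutant and at 5.74, 5.71 and 6.09 in wild type, and it was also low in the other mutants, at 3.69 to 4.12 (difference 0.11, limma adjusted p = 0.683). The remaining tested members haf-2, haf-9, pgp-4 and mrp-1 did not pass. So 2 of 6 tested fell, beside 4.73% of all genes, and haf-6 itself had prompted the list.

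2 further falls set the rde-4 mutant apart and were chosen after their values were seen. abhd-11.2, which encodes a hydrolase-like protein, stood at 5.38, 5.9 and 5.13 in the rde-4 mutant and at 7.78, 8.27 and 8.33 in wild type, with the other mutants at 8.03 to 8.84. Y54G11A.7 stood at 5.37, 4.38 and 4.86 in the rde-4 mutant and at 8.47, 8.36 and 8.38 in wild type, a change of -3.53 ± 0.22 (SE, limma adjusted p = 6.5e-06). Both calls held under every alternative, and both genes were lower than in each other mutant.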
